A study of Mus musculus with 24 samples.

Results

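The transcripts described here are those of 10 GTPases that interferon-gamma induces, namely the guanylate-binding proteins Gbp2, Gbp3, Gbp4, Gbp5, Gbp6 and Gbp7 and the immunity-related GTPases Irgm1, Irgm2, Igtp and Iigp1. They were chosen by symbol among the 54658 gene symbols of the series, and all 10 passed the filter on low counts in every tissue. All mice were male C57BL/6 animals aged 7 to 12 weeks. In the sterile model, peritonitis was raised with 1 mL of 4% Brewer thioglycollate medium (TGC), and mice were given β-nicotinamide mononucleotide (β-NMN, a precursor of NAD+) at 185 mg/kg/day or 0.9% saline as vehicle, in 3 daily injections of which the last came 24 h before sacrifice. Peritoneal cells of 6 vehicle and 6 β-NMN mice were then cultured with E. coli for 6 h, so that every peritoneal library holds stimulated cells. In the septic model, hearts and lungs were taken from the same 3 vehicle and 3 β-NMN mice 24 h after cecal ligation and puncture (CLP). The same dose or vehicle was given immediately after the surgery, which the study describes for these organs as a single administration. No unstimulated cells and no sham-operated mice are among the libraries analysed here, so the values do not show how far the GTPases had been induced.

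Interferon-gamma binds the receptor made of Ifngr1 and Ifngr2, which signals through the kinases Jak1 and Jak2 to promoters that carry gamma-activated sites (GAS). The transcription factor Irf1, itself induced, binds interferon-stimulated response elements (ISRE), on which type I interferons also act. The guanylate-binding proteins coat the vacuoles of intracellular pathogens and the surface of some bacteria, and they help bacterial lipopolysaccharide to reach caspase-11 (Casp4). Iigp1 is an effector that attacks pathogen vacuoles, whereas Irgm1, Irgm2 and Igtp (Irgm3) reside on host membranes and keep effector GTPases inactive there.

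The promoters of 7 of the 10 genes were matched in RefSeq windows on GRCm38.p6 that run from 250 bases before each annotated start to 50 bases after it. Gbp4, Gbp6 and Iigp1 had no entry. The core shared by ISREs, spelled GAAA, 2 bases of any kind and GAAA again, was searched on both strands. The GAS form, TTCNNNGAA, reads the same on both. The ISRE letters were found in the windows of all 7 genes, against 3.44% of the 32851 windows of the table, and the GAS letters in those of 4 genes (Gbp5, Gbp7, Irgm2 and Igtp), against 8.3%. Both were present in 4 of the 8 windows (Gbp3 has a second window with neither) and in 0.454% of all windows. The stretches below show how closely spaced these letters are, with the matched letters in capitals. All are read 5′ to 3′ on the strand of the gene, and a match is not evidence of binding.
Gbp2 (chr3:142620598-142620619, + strand): ttttagTTTCACTTTCactgtc
Gbp3 (chr3:142559993-142560020, + strand): acacagTTTCAGTTTCTATTTCccagat
Gbp5 (chr3:142496763-142496784, + strand): gtgtagTTTCAATTTCagttta
Gbp7 (chr3:142530224-142530298, + strand): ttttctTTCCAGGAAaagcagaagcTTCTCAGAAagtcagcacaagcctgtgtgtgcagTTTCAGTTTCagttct
Irgm1 (chr11:48871429-48871456, - strand): tttcaaGAAATAGAAACCGAAActgatt
Irgm2 (chr11:58214896-58214928, + strand): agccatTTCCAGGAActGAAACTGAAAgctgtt
Igtp (chr11:58199505-58199537, + strand): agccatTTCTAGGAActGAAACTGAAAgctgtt

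In Gbp3 and Irgm1 a pair of ISRE matches overlaps by 4 bases. In Irgm2 and Igtp a GAS match stands 2 bases before an ISRE match in the same order. The windows of these neighbouring genes were the most alike among pairs of the 7 genes with a window, compared with 1 window per gene. They were identical at 184 of 270 bases (68.1%) in the best ungapped alignment, while the next pair (Gbp3 and Igtp) reached 36.6%. The ISRE match of Gbp5 lies farther from its start than those of the others (the stretch shown runs from 171 to 150 bases before it), and a pair of GAS matches of Gbp5 outside the stretch is not shown. Starts differ between annotations: in GENCODE M21, 18 of the 22 bases of the Gbp2 stretch and all 28 of the Irgm1 stretch lie in exons, and those of Gbp5 and Irgm2 lie within the gene but outside its exons.

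In GENCODE M21 (GRCm38) Gbp5, Gbp7, Gbp3 and Gbp2 follow each other on chromosome 3 between 142493978 and 142638008, and Gbp4 (105115767 to 105139586) and Gbp6 (105270702 to 105293698) lie on chromosome 5. Irgm1 is on chromosome 11 (48861968 to 48871683), as are Igtp (58199556 to 58207591) and Irgm2 (58199618 to 58222782), whose annotated exons overlap by 162 bases on 1 strand.

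Reads were 150 bases long, and windows of that length were compared between all annotated transcripts to see which counts related genes could share. Of the distinct windows of Gbp6, 59.1% also occurred in the transcripts of Gm43302 or Gbp10, so its counts are uncertain. Gbp7 shared 8.77% of its windows with Gm43802, Igtp and Irgm2 shared 16 windows, Gbp4 shared 2 with Gbp11, and the other 5 members shared none. Neither the strand setting nor the treatment of reads that map to several genes is given in the sources used here.

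Total counts per library ranged from 31126823 to 112456050 in peritoneal cells, from 27319513 to 68523239 in hearts and from 8915366 to 28356786 in lungs, the lowest being the lung of vehicle replicate 2. The heart and the lung of that mouse stood farthest from their group mates. Marker genes bore out the tissues: the 6 cardiomyocyte markers summed to at least 30500 CPM (counts scaled to a common library total) in every heart, the 8 lung epithelial markers to at least 58900 CPM in every lung, and the 10 macrophage markers to 7370 to 13800 CPM in peritoneal cells. CPM values use TMM library sizes within a tissue unless stated. The labels do not say whether the peritoneal libraries were cultured apart, and p-values measure only the spread between these samples, which may be technical.

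The 10 GTPases were abundant transcripts of the stimulated peritoneal cells. Together they took 0.918% to 1.54% of all counts in each of the 12 libraries. Since longer transcripts collect more reads, levels are compared between genes as CPM per kb of exon. In vehicle mice Gbp2 was highest, at 1853 ± 497 CPM per kb (SD, n = 6), followed by Gbp5 (509 ± 138) and Gbp3 (369 ± 67.0). Igtp (208 ± 36.6), Irgm1 (187 ± 33.6), Gbp7 (153 ± 41.6) and Irgm2 (143 ± 14.3) formed a middle group. Iigp1 (53.1 ± 22.8), Gbp4 (37.7 ± 17.5) and Gbp6 (24.5 ± 4.17) were lowest. The ranges over libraries overlapped between Gbp5 and Gbp3, between all neighbours within the middle group, and between the neighbours of the lowest group. Gbp2 stood clear of Gbp5, Gbp3 of Igtp, and Irgm2 of Iigp1. With the longest transcript as the length, Irgm1 (283 CPM per kb) and Igtp (208 CPM per kb) changed places and the order of the others was kept. The levels of Irgm1, Gbp5 (899.8 CPM per kb), Iigp1 (98.98 CPM per kb) and Gbp4 (62.29 CPM per kb) were then more than 1.5 times those given.

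**Figure D1:**
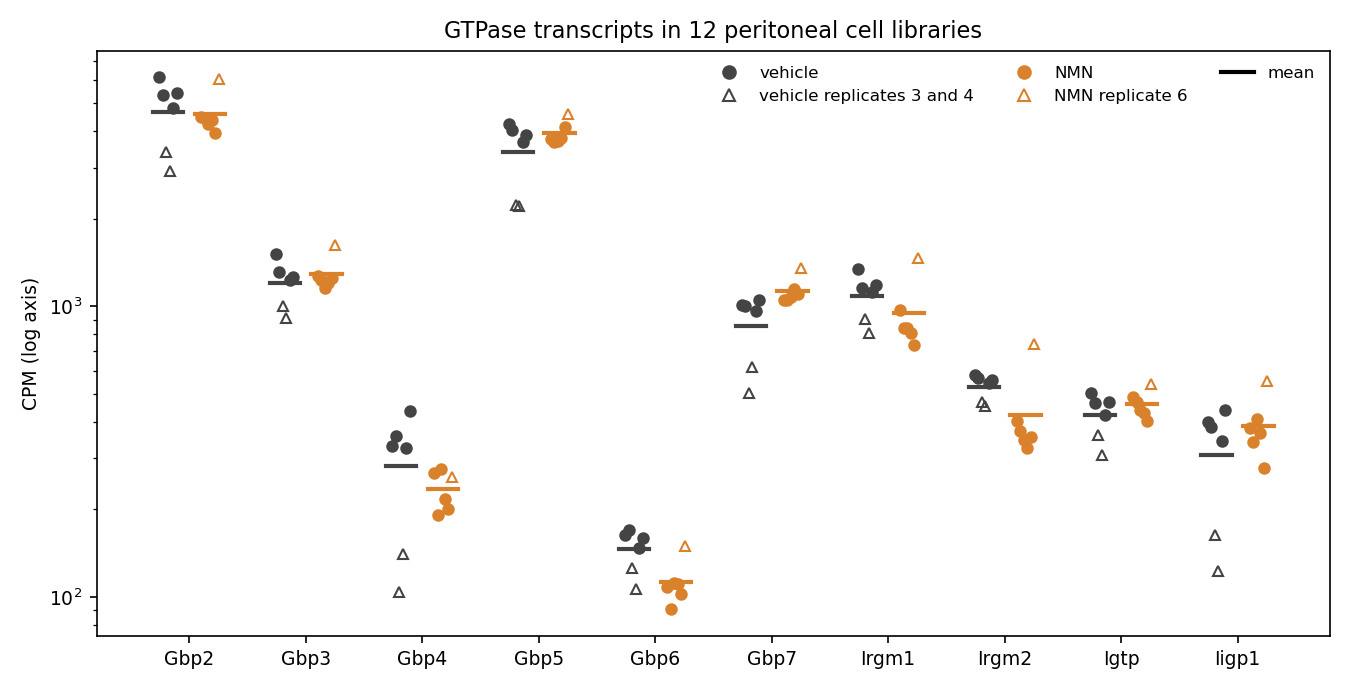
CPM of each GTPase (log axis) in the 6 vehicle (grey) and 6 β-NMN (orange) peritoneal libraries, with bars at the group means; open triangles are vehicle replicates 3 and 4 and β-NMN replicate 6. The lowest vehicle point of every gene is one of the triangles, and the β-NMN triangle is the highest β-NMN point for 9 of the 10 genes.

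The first question was whether β-NMN changed these transcripts in peritoneal cells. By edgeR's quasi-likelihood test, 1 of the 10 GTPases passed an adjusted p of 0.05: Gbp6, which was lower. Over all 14985 genes tested, 51.6% passed, 23.7% higher and 27.9% lower. The log2 fold changes of the GTPases (β-NMN over vehicle) ran from -0.37 to 0.40, 5 above and 5 below 0, with a median of 0.04. Over all genes the median was -0.02 and the median size of the change 0.43, a size that no GTPase exceeded.

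Among the guanylate-binding proteins, Gbp6 had 106 CPM in its lowest vehicle library, a median of 153 CPM and 170 CPM in the highest, against 90.8, 109 and 150 CPM in the β-NMN libraries. The groups overlapped, since vehicle replicate 4 lay within the β-NMN range and β-NMN replicate 6 lay above vehicle replicates 3, 4 and 5. The log2 fold change was -0.37 (SE 0.13, adjusted p = 0.0275; exact two-sided permutation p = 0.0325, n = 6 per group). The call did not hold when any of 8 single libraries was left out (vehicle replicates 1, 2 and 6 and β-NMN replicates 1 to 5), with adjusted p from 0.0521 to 0.0766. With the counts of Gbp6, Gbp10 and Gm43302 summed, an alternative added after the data were seen, it was -0.40 (adjusted p = 0.0214).

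Gbp7 was the only member whose groups did not overlap, a pattern that 26.6% of all genes tested showed. Its vehicle libraries had 503, 980 and 1048 CPM at their lowest, median and highest, and the β-NMN libraries 1051, 1090 and 1358 CPM. The highest vehicle and the lowest β-NMN library thus nearly touched. The log2 fold change of 0.40 (SE 0.17) missed the threshold (adjusted p = 0.0535), and the exact permutation p was 0.00216, the smallest that 6 against 6 libraries can give. With the size factors of DESeq2 the adjusted p was 0.0432, and with DESeq2 itself 0.0414. It was also called without vehicle replicate 1, 3 or 6 or without β-NMN replicate 3 (adjusted p from 0.0333 to 0.0488).

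Gbp2, the most abundant member, had 2908, 5058 and 6128 CPM at the lowest, median and highest vehicle library and 3953, 4421 and 6039 CPM with β-NMN. Its log2 fold change was -0.02, with a 95% interval from -0.39 to 0.34. Gbp5, which also promotes assembly of the NLRP3 inflammasome, had 2204, 3784 and 4232 CPM against 3662, 3789 and 4594 CPM, a log2 fold change of 0.22 (interval -0.13 to 0.57). The β-NMN values of Gbp5 lay closer together than the vehicle values, because vehicle replicates 3 and 4 were low. Gbp3 had 908 to 1509 CPM against 1159 to 1626 CPM (0.10, interval -0.17 to 0.37). Gbp4 had 104 to 436 CPM against 191 to 276 CPM (-0.26, interval -0.86 to 0.33).

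None of the immunity-related GTPases passed the test in peritoneal cells. Irgm2 had 455, 550 and 579 CPM at the lowest, median and highest vehicle library and 325, 363 and 743 CPM with β-NMN. All 5 other β-NMN libraries lay below every vehicle library, whereas β-NMN replicate 6 lay above all of them. The log2 fold change was -0.32 (SE 0.18, adjusted p = 0.148). Irgm1 had 807, 1135 and 1340 CPM against 736, 840 and 1466 CPM, a change of -0.20 (interval -0.56 to 0.16). Without β-NMN replicate 6, 3 members were called lower instead of 1: Gbp6 (-0.45, adjusted p = 0.00665), Irgm2 (-0.52, adjusted p = 0.000495) and Irgm1 (-0.34, adjusted p = 0.0433). Igtp had 308, 443 and 503 CPM against 404, 453 and 539 CPM (0.13, interval -0.12 to 0.38), and Iigp1 had 123, 364 and 440 CPM against 277, 374 and 554 CPM (0.33, interval -0.25 to 0.91). For Igtp and Iigp1 the medians of the groups were close, and the low vehicle values again belonged to replicates 3 and 4.

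The balance of Igtp and Irgm2, the pair with the most alike promoter windows of those compared, was not the same in all libraries. The ratio of Igtp to Irgm2 CPM was 0.677 to 0.868 in the 6 vehicle libraries and 1.14 to 1.31 in β-NMN replicates 1 to 5. In β-NMN replicate 6 it was 0.725, within the vehicle range. This ratio was looked at after the values were seen and was not tested.

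**Figure D2:**
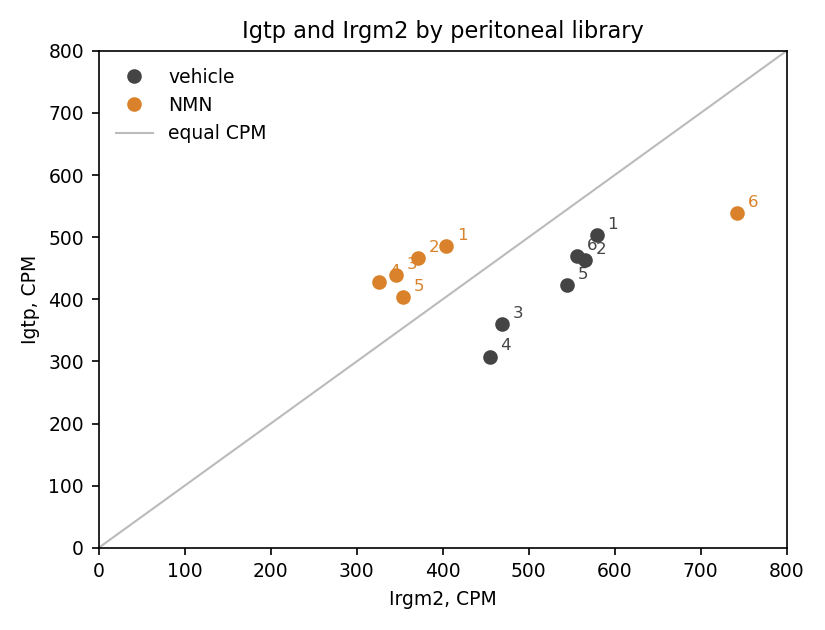
Igtp against Irgm2, both in CPM, in the 12 peritoneal libraries, numbered by replicate; the line marks equal CPM. The vehicle libraries (grey) and β-NMN replicate 6 lie below the line, and the other 5 β-NMN libraries (orange) above it.

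The members rose and fell together from library to library. Over the 12 libraries the 45 pairwise correlations of log2 CPM had a median of 0.72 (0.04 to 0.95), and with the group means removed a median of 0.87 (0.38 to 0.97). These describe 12 libraries of 1 table and 1 culture condition, and moving together was not particular to the members. For each member the gene of the highest r was not a member. It was a related GTPase for Gbp2 (Ifi47, 0.97) and Iigp1 (Gbp9, 0.97), but Ripk1 for Gbp5 (0.98) and Tor1aip1 for Irgm2 (0.99). Vehicle replicate 4 was the lowest vehicle library for 8 members and replicate 3 for the other 2. β-NMN replicate 6 was the highest β-NMN library for 9. By the rule set for likeness, the genes whose log2 CPM followed the mean of the members most closely among 9628 compared were Serpina3f (r = 0.97), Gmppb, Ddx58 and Ifi47 (0.96 each), Pml, Slc25a12 and Batf2 (0.95 each) and St3gal5 (0.94). Ifi47 is itself an immunity-related GTPase, Ddx58 encodes the RNA sensor RIG-I, and Pml and Batf2 are interferon-induced. Gmppb, Slc25a12 and St3gal5 belonged to none of the interferon or marker lists described below. None of the 8 was called between the groups.

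Transcripts of the ligand and receptor did fall with β-NMN. Ifng had 180, 603 and 1325 CPM at its lowest, median and highest vehicle library and 133, 197 and 256 CPM in β-NMN mice. The log2 fold change was -1.62 (SE 0.36, adjusted p = 0.00168), and the 2 lowest vehicle libraries, replicate 3 with 180 CPM and replicate 4 with 287 CPM, lay in or near the β-NMN range. Ifngr1 fell from 74.4 ± 6.35 to 27.9 ± 3.12 CPM (-1.42, adjusted p = 3.21e-08) without overlap, and Ifngr2 from 112 ± 11.6 to 96.9 ± 4.88 CPM (-0.21, adjusted p = 0.039). Within the vehicle group, the libraries lowest in Ifng were also those lowest in the GTPases. In β-NMN mice the library with the highest summed GTPases, replicate 6 (17326 CPM), had the lowest Ifng (133 CPM). The other 5 β-NMN libraries had 181 to 256 CPM of Ifng and 12512 to 13189 CPM of GTPases, above the 9267 and 8577 CPM of vehicle replicates 3 and 4.

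**Figure D3:**
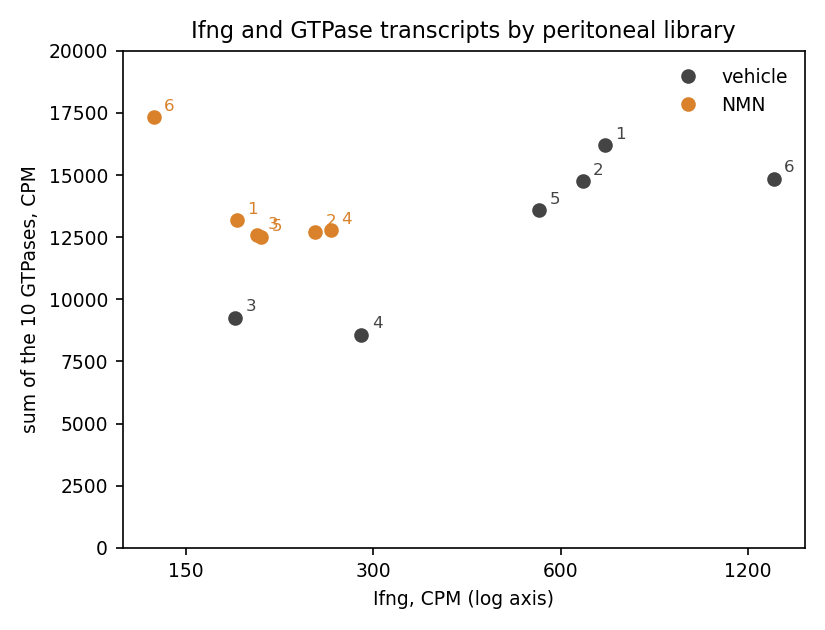
Sum of the 10 GTPases (CPM) against Ifng (CPM, log axis) in each peritoneal library, numbered by replicate. Vehicle replicates 3 and 4 (grey) have both the lowest sums and the lowest Ifng of their group, and β-NMN replicate 6 (orange) has the highest sum with the lowest Ifng.

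Natural killer cells are a source of interferon-gamma, and their 8 markers were all called lower with β-NMN, summing to 55.3 to 276 CPM in vehicle libraries and 17.7 to 39.4 CPM in β-NMN libraries. T cell markers were called lower for 7 of 8 and higher for 1, though the ranges of their sums overlapped (34.8 to 104 against 45.3 to 63.2 CPM). Dendritic cell markers, 4 of 6 called lower and 1 higher, summed to 171 to 209 CPM against 38.8 to 52.8 CPM, and fibroblast markers to 111 to 1170 against 22.9 to 99.8 CPM. Neutrophil markers summed to 495 to 1010 against 335 to 468 CPM, with 6 of 10 called lower and 1 higher. Of the 10 macrophage markers, 3 were called higher and 1 lower, with sums of 7370 to 13800 against 11000 to 12600 CPM. None of these lists had a marker at 0, and their part in the results was not tested. In bulk samples, fewer cells of a type and less RNA per cell cannot be told apart.

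The other genes of the response moved in both directions, and the counts of each list are to be read against the 23.7% of all genes called higher and the 27.9% called lower. Of 17 genes of the interferon-gamma ligand, receptor and signalling list, 2 were called higher and 10 lower (median -0.30). The myeloid factor Irf8 rose without overlap (0.78, adjusted p = 0.0202). Cebpb fell (-1.40, adjusted p = 1.99e-05). Irf1 had 3226 ± 690 CPM against 3068 ± 549 CPM (-0.07, interval -0.39 to 0.25).

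Of 26 interferon-gamma-induced genes without a GTPase domain, 0 were called higher and 7 lower, with a median of -0.08. The lower calls were about as frequent as the 27.9% over all genes. Ido1, which degrades tryptophan (-1.58), Nos2, the inducible nitric oxide synthase (-1.48, adjusted p = 0.00031), and Acod1, which makes itaconate (-1.31), fell most. Nos2 and Acod1 did so without overlap between groups. The chemokines Cxcl9 (0.51, interval -0.19 to 1.20) and Cxcl10 (0.07, interval -0.40 to 0.55) and the MHC class II activator Ciita (-0.12, interval -0.60 to 0.36) were not called.

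Of 22 type I interferon response genes, 6 were called higher and 0 lower (median 0.16), the largest being Cmpk2 (0.65), Ifit2 (0.63) and Ifit3 (0.53). The higher calls were near the 23.7% over all genes. The ligand gene Ifnb1 rose from 6.79 ± 2.30 to 17.99 ± 4.01 CPM (1.41, adjusted p = 6.09e-05). Of the 7 ligand and receptor genes of type I interferon that passed the filter, Ifna4 (-1.26) and the receptor chain Ifnar2 (-0.42) were called lower and the median was -0.84. Of 7 cytokines that raise interferon-gamma, Il15 (0.82) and Il27 (0.69) rose and 4 fell, with a median of -1.55, led by Il23a (-4.72), Il12b (-2.12) and Ebi3 (-1.62).

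Related GTPases outside the 10 were called for 8 of the 21 tested, against 51.6% of all genes. Of the 5 other guanylate-binding proteins, Gbp2b (-1.18), Gbp10 (-0.93) and Gbp8 (-0.74) were called lower and none higher (median -0.74). Their vehicle means were low, at 1.52 CPM for Gbp2b, 8.20 CPM for Gbp10 and 7.97 CPM for Gbp8. Of 12 other immunity-related GTPases, Tgtp1 (-1.19) and Gm4841 (-0.57) fell and Gm4951 rose (0.69, adjusted p = 0.0378), with a median of -0.01. Tgtp1 and Tgtp2 are near-identical copies, so the split of their counts is uncertain. Of the 4 very large and dynamin-like GTPases tested, Mx1 (1.25, adjusted p = 3.11e-05) and Mx2 (1.02, adjusted p = 2.12e-05), which block viruses, rose without overlap and the other 2 were not called (median 0.50).

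Partners of the GTPases were called in either direction at shares near those over all genes, as were inflammasome genes. Of 20 genes acting with them on vacuoles, 6 were called higher and 6 lower (median 0.11), with Lgals3 (1.22), which senses broken vacuoles, Lgals8 (0.37) and Atg16l1 (0.30) leading the rises and the autophagy adaptor Sqstm1 (-1.43), Pim1 (-0.49) and Traf6 (-0.46) the falls. Of 11 inflammasome genes, 3 rose and 3 fell (median -0.04). The DNA sensor Aim2 (0.74, adjusted p = 0.000128), the adaptor Pycard (1.26) and Naip5 (0.60) rose, and Il1b (-3.17), Nlrp3 (-2.67) and Nlrc4 (-1.74) fell. Casp4, which the guanylate-binding proteins serve, had 475 ± 57.8 CPM against 451 ± 69.5 CPM (-0.07, interval -0.31 to 0.16). Without β-NMN replicate 6 the counts called in these lists were within 1.5 times of those given, except for the type I ligands and receptors, with 5 called instead of 3, and for the other immunity-related GTPases, where the 3 calls were then all lower. Ifng was at -1.50 without that library (adjusted p = 0.00463) and Ifnb1 at 1.35.

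The second question was whether β-NMN changed the GTPases in organs of septic mice. In CLP hearts the 10 GTPases together took 0.018% to 0.0402% of counts. By edgeR's quasi-likelihood test none of the 10 was called, as was 0% of the 16245 genes tested, while 11.3% of all genes and 5 of the 10 GTPases had an unadjusted p below 0.05. DESeq2 called 287 genes and limma-voom with quality weights 3, none of them among the 10. The log2 fold changes lay below 0 for 8 members, with a median of -0.52 against -0.01 over all genes.

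All 4 immunity-related GTPases had lower means with β-NMN in hearts. Irgm2 had 40.8, 58.4 and 61.3 CPM in the vehicle hearts and 27.5, 24.5 and 40.4 CPM in the β-NMN hearts. Iigp1 had 62.0, 80.9 and 87.5 CPM against 57.2, 45.6 and 56.4 CPM. These were the 2 members whose groups did not overlap, which 23.1% of all heart genes showed. The log2 fold change was -0.80 for Irgm2 (SE 0.24, unadjusted p = 0.0126, adjusted p = 0.435) and -0.53 for Iigp1 (SE 0.17, unadjusted p = 0.0155, adjusted p = 0.435). For each, the exact permutation p was 0.1, the smallest that 3 against 3 mice allow. Igtp had 18.4, 33.7 and 28.4 CPM against 13.5, 12.1 and 18.8 CPM (-0.86), and Irgm1 had 31.5, 39.2 and 44.9 CPM against 20.7, 18.9 and 33.8 CPM (-0.66). In both, vehicle replicate 1 lay below the highest β-NMN heart.

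The guanylate-binding proteins went both ways in hearts. Gbp6 had 9.50, 9.82 and 15.98 CPM in vehicle hearts and 18.6, 17.1 and 15.9 CPM in β-NMN hearts, a log2 fold change of 0.55 (interval 0.02 to 1.08, adjusted p = 0.435). Gbp4 was at 13.9 ± 7.80 against 17.4 ± 6.97 CPM (0.33, interval -0.80 to 1.46). The other 4 had lower means. Gbp2 was at 31.4 ± 10.3 against 22.1 ± 3.02 CPM (-0.51, interval -1.11 to 0.11), Gbp3 at 25.1 ± 9.22 against 16.7 ± 6.53 CPM (-0.58, interval -1.41 to 0.24), Gbp5 at 16.3 ± 5.90 against 12.6 ± 2.61 CPM (-0.36, interval -1.06 to 0.34) and Gbp7 at 30.6 ± 17.7 against 24.6 ± 11.6 CPM (-0.31, interval -1.41 to 0.79). Leaving out single hearts moved the median of the 10 between -0.70 (without vehicle replicate 1) and -0.34 (without vehicle replicate 3), with -0.54 without vehicle replicate 2.

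The members took 0.0175% to 0.0461% of counts in CLP lungs, where 0 of 10 GTPases and 0% of 17008 genes were called, and 0 of 10 had an unadjusted p below 0.05 (301 genes, 1.77%, did). DESeq2 called 5 genes and limma-voom with quality weights 7, none of them members. The log2 fold changes lay below 0 for 9 members, with a median of -0.41 against 0.00 over all genes. No member's groups stood apart, against 8.21% of all genes. Iigp1 had 42.3, 63.6 and 48.0 CPM in vehicle lungs and 19.4, 22.3 and 51.4 CPM in β-NMN lungs, a log2 fold change of -0.72 (interval -1.70 to 0.25, adjusted p = 0.969). Igtp had 40.1, 25.0 and 59.2 CPM against 21.5, 19.0 and 38.9 CPM (-0.65, interval -1.61 to 0.31). β-NMN replicate 3 was the highest β-NMN lung for 9 members, and vehicle replicate 3 the highest vehicle lung for 9.

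The remaining lung values were as spread. Irgm2 was at 61.1 ± 27.2 against 48.0 ± 18.8 CPM (-0.35, interval -1.36 to 0.66), Irgm1 at 45.1 ± 26.2 against 35.2 ± 17.96 CPM (-0.36, interval -1.70 to 0.98), Gbp2 at 46.0 ± 14.6 against 38.9 ± 8.49 CPM (-0.25, interval -0.97 to 0.48) and Gbp3 at 32.5 ± 9.04 against 21.5 ± 8.69 CPM (-0.60, interval -1.44 to 0.25). Gbp5 (-0.46), Gbp6 (-0.67) and Gbp7 (-0.06) had lower means too, and Gbp4 a higher one (0.60, interval -0.87 to 2.07). Without vehicle replicate 3 the median of the 10 was -0.03, without β-NMN replicate 3 it was -0.79, and without vehicle replicate 2, the shallowest library, -0.66.

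**Figure D4:**
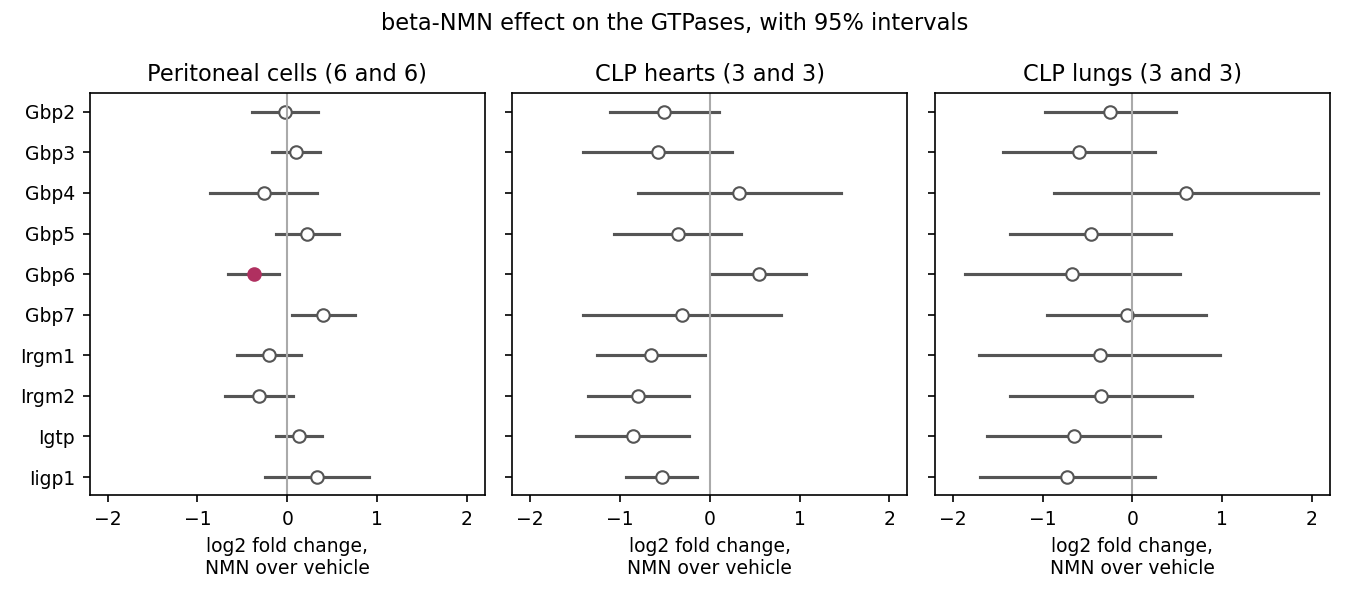
Log2 fold change of β-NMN over vehicle (points) with 95% intervals (lines) for each GTPase in the 3 tissues; the filled point has an adjusted p below 0.05. Only Gbp6 in peritoneal cells is filled, and all 10 intervals in lungs cross 0.

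Ifng itself was barely sampled in the organs. The 3 vehicle hearts held 0 counts, which allows up to 0.0873 CPM in the shallowest of them, and the β-NMN hearts held 1 count in all. Lungs held 0 to 3 counts per library. In hearts Cxcl10 (-1.57), Casp4 (-1.19) and Irf8 (-0.89) had unadjusted edgeR p of 0.0153, 0.0297 and 0.0301, each with an adjusted p of 0.435. Ido1 (0.86) and the related GTPase Gbp10 (0.92) were higher, with unadjusted p of 0.0445 and 0.0181 and the same adjusted p. Both receptor chains had higher means, Ifngr1 (0.225, unadjusted p = 0.0605) and Ifngr2 (0.55, unadjusted p = 0.0616). Of 24 interferon-gamma-induced genes without a GTPase domain, 1 was higher and 7 lower at an unadjusted p below 0.05, which 11.3% of all genes had. The interval of Irf1 (0.06) spanned 0. In lungs the intervals of Irf1 (-0.25) and Cxcl10 (-0.74) did too. No gene of the 10 further lists was called in either organ by edgeR. The type I interferon response genes had log2 fold changes below 0 for 20 of 22 in hearts (median -0.44) and for 21 of 22 in lungs (median -0.56). Neutrophil markers summed to 27.0 to 44.4 CPM in vehicle hearts and 16.1 to 20 CPM in β-NMN hearts, and macrophage markers to 282 to 425 and 298 to 504 CPM. Cardiomyocyte markers summed to 30500 to 49700 CPM in vehicle hearts and 52000 to 56900 CPM in β-NMN hearts, and mesothelial markers to 9.82 to 98 and 5.66 to 10.1 CPM. In lungs macrophage markers summed to 1510 to 4480 and 5150 to 5590 CPM, and cardiomyocyte markers to 252 to 415 CPM in vehicle and 74.7 to 245 CPM in β-NMN mice. The part of these cells in the GTPase values was not tested.

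The heart and the lung of the same septic mice also showed which organ held more of each GTPase. Here both organs were scaled together. Of the 10 GTPases, 4 were called lower in lungs than in hearts of vehicle mice and 0 higher. Of all 18318 genes tested, 51% were called, and 23.4% were called lower in lung. Gbp6 had 12.2, 12.2 and 20.1 CPM in the vehicle hearts and 4.58, 2.01 and 5.10 CPM in the lungs of the same mice, a log2 difference (lung minus heart) of -1.89 (SE 0.41, adjusted p = 0.00255). Iigp1 had 79.3, 101 and 110 CPM in heart and 34.4, 46.6 and 38.9 CPM in lung (-1.28, SE 0.34, adjusted p = 0.00828).

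Gbp4 had 18.1, 7.40 and 27.1 CPM in heart and 7.81, 1.17 and 8.06 CPM in lung (-1.58, SE 0.61, adjusted p = 0.0468). Gbp5 had 12.9, 20.9 and 27.6 CPM against 8.94, 6.46 and 15.6 CPM (-0.97, SE 0.37, adjusted p = 0.0439). Each of the 4 was lower in lung than in heart in 6 of 6 mice, β-NMN mice included. The 4 calls held with the mouse as a block, and Gbp5 was not called by limma-voom with quality weights. Only Gbp6 was called whichever mouse was left out, but 59.1% of its windows also occurred in Gm43302 or Gbp10. The summed counts of these genes were not compared between organs. Iigp1 lost its call without vehicle replicate 3 and Gbp5 was called only in the fit without that mouse. Gbp4 was called only without vehicle replicate 2, so that 2 members were called without vehicle replicate 1 or 3 or any of the β-NMN mice and 3 without vehicle replicate 2.

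The other 6 did not differ by a called amount between organs. Igtp had 33.7 ± 9.33 CPM in vehicle hearts and 33.0 ± 14.8 CPM in vehicle lungs (-0.03, interval -0.86 to 0.81), and Gbp2 had 39.5 ± 12.5 and 36.6 ± 13.1 CPM (-0.11, interval -0.79 to 0.58). Gbp3 (-0.29), Irgm1 (-0.42), Irgm2 (-0.46) and Gbp7 (-0.57) had intervals that included 0.

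Within each organ the members were also ordered per kb of exon. These values are scaled within an organ, so they give the order of genes there and no difference between heart and lung. Irgm2 (14.5 ± 2.998 CPM per kb), Igtp (13.3 ± 3.82), Iigp1 (13.2 ± 2.27) and Gbp2 (12.5 ± 4.11) led in vehicle hearts with overlapping ranges, and Igtp (20.5 ± 8.49), Gbp2 (18.3 ± 5.80) and Irgm2 (16.6 ± 7.36) in vehicle lungs. With the longest transcript as the length, Iigp1 led in vehicle hearts, at 24.6 CPM per kb against 15.2 for Irgm2, and stood at 16.4 CPM per kb instead of 8.81 in vehicle lungs. Per kb of exon, Gbp6 and Gbp4 were the lowest 2 in each organ of vehicle mice, at 1.98 ± 0.61 and 1.85 ± 1.04 CPM per kb in hearts and 0.822 ± 0.317 and 0.941 ± 0.631 CPM per kb in lungs. In β-NMN mice the lowest 2 were Gbp5 (1.905) and Gbp4 (2.317) in hearts, and Gbp6 (0.5206) and Gbp5 (1.431) in lungs, where Gbp4 was close (1.448). Peritoneal cells came from another table, so their levels were set beside those of the organs without a test.

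**Figure D5:**
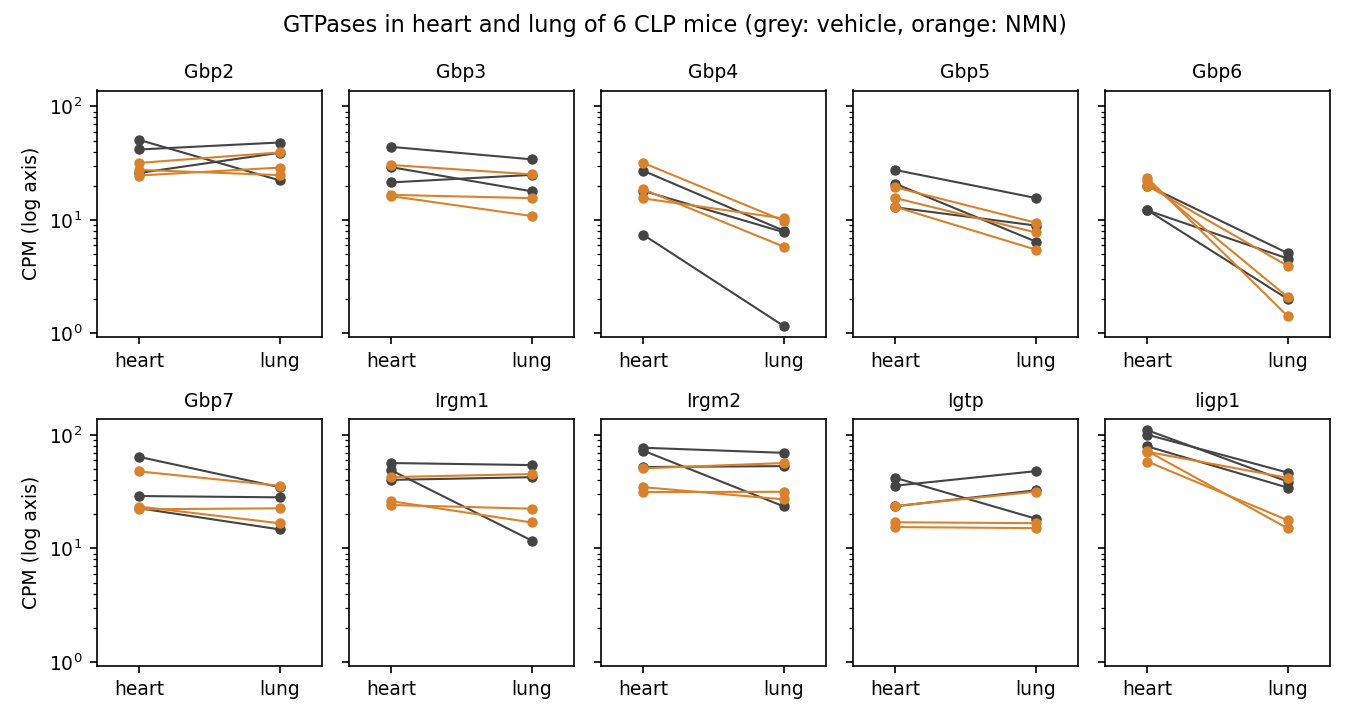
CPM (log axis) of each GTPase in heart and lung, with a line joining the organs of 1 mouse (grey for 3 vehicle mice, orange for 3 β-NMN mice). All 6 lines fall from heart to lung for Gbp4, Gbp5, Gbp6 and Iigp1, and lines run in both directions for the other genes.

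Last, the effect of β-NMN was compared between the organs by the interaction of organ and treatment. No GTPase and 0% of 18318 genes were called, and 0 members had an unadjusted p below 0.05 (797 of all genes did). DESeq2 called 14 genes, none of them members. The largest difference was that of Gbp6, higher with β-NMN in hearts and lower in lungs, at -1.22 (lung effect minus heart effect, interval -2.46 to 0.01, unadjusted p = 0.0513, adjusted p = 0.96). With the mouse as a block it was -1.27 (unadjusted p = 0.0457, adjusted p = 0.948), so that 1 member then passed the unadjusted threshold. For the other 9 members the difference ran from -0.16 to 0.44 with intervals that spanned 0, and the widest, that of Gbp4, reached from -1.59 to 2.08.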

How the data were processed

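The authors deposited 2 tables of raw read counts per gene symbol, made from poly(A)-selected RNA sequenced on a NovaSeq with reads of 150 bases, mapped to mm10 with STAR (2.7.3a in the submitters' processing notes) and counted with featureCounts 2.0.0; no source used here names the annotation, and they differ on single or paired reads. The counts were not normalized. Each tissue was fitted over its whole table with edgeR 4.0.16 in R 4.3.3 (filterByExpr, TMM, estimateDisp and the legacy quasi-likelihood test). P-values were adjusted by Benjamini-Hochberg over all genes tested, and calls had an adjusted p below 0.05. A prior count of 2 entered log2 CPM values. Single members also had an exact two-sided permutation test. Organs were compared in 1 fit of the 12 CLP libraries. Heart and lung of a mouse come from the same animal per the labels, and their deviations from group means correlated at 0.06 to 0.17. On simulated counts the fit returned the planted sizes, but at the spread of the lungs no planted change passed the threshold.

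A β-NMN heart labelled replicate 3 a second time was taken as replicate 2, the number of its mouse's lung. The CLP source labels name thioglycollate, whereas titles, tissues and the study's methods give CLP. All 10 members were named, with the interferon genes listed beforehand and up to 3 called genes per list and direction with the largest peritoneal change. The 10 members and the lists were chosen with earlier results of these data known. Alternatives were DESeq2 1.42.0 and its size factors, no low-count filter, the newer edgeR fit, limma-voom (limma 3.58.1), blocks, 1 fit of both organs, and leaving out each library. The values of 1 listed gene are not reported here.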

Additional observations from a re-analysis of the deposited data

Results flagged for a closer look

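In the β-NMN peritoneal group, replicate 6 stood apart from the 5 other libraries for 6 of the 10 GTPases, by a gap to the next library that exceeded Dixon's 95% critical value for 6 samples. It had 6039 CPM of Gbp2 (next 4470), 1626 CPM of Gbp3 (next 1274), 149.9 CPM of Gbp6 (next 111.9), 1358 CPM of Gbp7 (next 1149), 1466 CPM of Irgm1 (next 973.8) and 742.7 CPM of Irgm2 (next 404.3). No vehicle library stood apart in this way for any member. Of 20 groups examined (10 genes in each of the peritoneal groups), 6 did so, where chance gives about 1 in 20. All 6 come from 1 library and are not independent, and the cause was not tested.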

How the results depend on the processing

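With 3 mice per group, 1 organ library can decide much of a median. In the shallowest lung, a count of 0 allows up to 0.433 CPM. In peritoneal cells, the number of GTPases called was 1 as reported, 2 with the size factors of DESeq2, 2 without the low-count filter and 2 with DESeq2 (Gbp7 higher and Gbp6 lower in each), 3 with limma-voom and quality weights (Gbp6, Irgm1 and Irgm2 lower), and 0 to 3 when single libraries were left out. Deviations of same-numbered vehicle and β-NMN samples correlated at -0.17 to 0.13 in peritoneal cells, 0.07 to 0.24 in hearts and -0.52 to 0.30 in lungs. Heart and lung of 1 mouse gave only 0.06 to 0.17, so this measure cannot decide whether the numbers pair the samples. With the replicate block 3 were called (Gbp7 higher, Gbp6 and Irgm2 lower), and 0 in hearts or lungs. Between organs, 4 were called with the mouse as a replicate block, 3 with limma-voom (Gbp5 not called) and 2 to 3 when single mice were left out. No alternative called a GTPase for β-NMN in hearts, in lungs or in the interaction. The median log2 fold change of the GTPases ran from -0.10 to 0.15 over the alternatives in peritoneal cells, from -0.70 to -0.34 in hearts and from -0.79 to -0.03 in lungs. Of all genes, 14.2% were called in peritoneal cells without the low-count filter and 36% with DESeq2, against 51.6%. Against 0 by edgeR, 3 heart genes were called without the filter, 5 without vehicle replicate 2, and 2 genes in the interaction without the filter.

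Some single values changed sign. Gbp2 in peritoneal cells was 0.00 with the size factors of DESeq2, 0.00 with DESeq2, 0.01 with the replicate block and -0.09 to 0.10 over single libraries left out. Gbp3 in peritoneal cells was -0.03 with limma-voom. Over single libraries left out, Gbp4 in hearts ran from -0.04 to 0.79, Gbp7 in hearts from -0.77 to 0.27, Gbp7 in lungs from -0.39 to 0.20 and Irgm1 in lungs from -0.86 to 0.04. With the longest transcript as the length, the median level of the 10 GTPases in a library, averaged over the vehicle lungs, was 11.6 instead of 7.85 CPM per kb. The cause was not tested.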
